A study of Homo sapiens with 12 samples.

Results

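The transcripts described here are those of the epidermal growth factor gene EGF, the 4 receptors of the ERBB family (EGFR, ERBB2, ERBB3 and ERBB4), the ligands AREG and TGFA, and ERRFI1, an inhibitor of EGFR signalling. These 8 genes of 63568 were taken by their Ensembl identifiers. EGF was chosen because its expression was lower after BRG1 depletion in these same libraries, and the other 7 genes because they belong to the same signalling system. LNCaP, an androgen-sensitive line from a lymph node metastasis of prostate cancer, received a non-targeting siRNA (si-NT) or an siRNA directed at SMARCA4, the gene of the chromatin remodeller BRG1, of which there were 2, and RNA was sequenced 72 h and 144 h later. There were 2 si-NT libraries and 4 BRG1 depleted libraries at each time point, the latter made up of 2 libraries for each siRNA. All libraries came from this single line. Cells of the later time point were replated and given siRNA again at 72 h, so the 144 h libraries differ from those of 72 h by a passage and a further transfection as well as by time, which cannot be told apart. Nothing in the labels says whether duplicates were separate cultures, so p-values measure the spread between libraries, which may be technical.

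EGF and its relatives are made as membrane-anchored precursors, which are cut at the cell surface to release the soluble ligand. EGF, TGFA and AREG bind EGFR, whereas the neuregulins bind ERBB3 and ERBB4. ERBB2 has no known ligand and signals as the partner of the other receptors, and ERBB3, whose kinase is weak, carries many docking sites for PI3-kinase. Activated receptors feed the RAS-ERK and PI3K-AKT pathways, and ERK signalling in turn induces inhibitors such as ERRFI1 that bind the receptor kinase and silence it. In prostate epithelium this system is known as a stimulus of growth.

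The question the study put to these libraries was which genes change when BRG1 is lost, and it went on to ask about the forkhead factor FOXA1 at BRG1-dependent promoters. Promoter sequences are therefore shown for EGF and ERBB2, the members with the greatest difference downwards and upwards. Each is the 250 bases before a start of the gene in a RefSeq table of build GRCh38.p14, read 5′ to 3′ on the strand of the gene. A window lies upstream of that start alone and may overlap transcripts that begin elsewhere. Other starts of these 2 genes were not searched. Capitals mark exact matches on either strand to the forkhead motifs TGTTTAC and TGTTTGC or to the AP-1 motif TGAGTCA. No match of one motif overlapped a match of another.
EGF promoter, chr4:109912633-109912882, plus strand: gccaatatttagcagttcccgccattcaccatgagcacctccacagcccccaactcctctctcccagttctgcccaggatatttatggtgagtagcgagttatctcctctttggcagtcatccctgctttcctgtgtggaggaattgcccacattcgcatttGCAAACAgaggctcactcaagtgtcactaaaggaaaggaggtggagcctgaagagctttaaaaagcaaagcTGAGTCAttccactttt
ERBB2 promoter, chr17:39687844-39688093, plus strand: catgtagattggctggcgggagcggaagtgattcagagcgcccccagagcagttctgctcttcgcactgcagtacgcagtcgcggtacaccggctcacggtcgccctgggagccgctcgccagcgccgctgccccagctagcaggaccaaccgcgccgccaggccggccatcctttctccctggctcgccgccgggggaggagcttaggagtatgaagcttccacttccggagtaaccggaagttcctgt
The EGF window held the forkhead letters TGTTTGC on the reverse strand, where they read GCAAACA, 88 bases before the start, and TGAGTCA 17 bases before the start. None of these motifs was found in the ERBB2 window. Which start of EGF or ERBB2 these cells use was not examined, so a window may not be the promoter in use. Among 35116 promoters of the same length in the table, TGTTTGC was present in 3.23%, TGAGTCA in 4.2% and TGTTTAC in 2.98%. TGAGTCA was also found at 2 places in the window of an internal EGFR start. The windows of TGFA, ERRFI1, AREG and ERBB4 held no match. A match is a stretch of letters and not evidence of binding.

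Expression is given as TPM, the abundance of a transcript scaled to its length and to the total of the library, so that levels of different genes may be set side by side. Read depth cannot be recovered from this unit and is unknown here, and precision rests on the replicates. The number of genes at 1 TPM or more was 14706 to 15355 per library. ERCC spike-in RNA, an external standard added to total RNA before library construction, made up 0.805 to 1.34% of the si-NT libraries and 1.04 to 1.97% of the BRG1 depleted libraries. SMARCA4 was 85.2 ± 16.7 TPM (SD, n = 2) in si-NT and 19.3 ± 1.75 TPM (SD, n = 4) after depletion at 72 h, and 101 ± 8.55 against 15.2 ± 2.63 TPM at 144 h. All 9 markers of luminal prostate and LNCaP cells were at 1 TPM or more in every library, and all 4 basal markers were under 1 TPM in every library. Of the stromal markers, 4 of 5 were under 1 TPM in every library, the exception being COL1A1 (3.1 to 9.11 TPM), and the 3 markers of leukocytes and endothelium that were found were also under 1 TPM. The stromal sum was 6.14 to 8.18 TPM in si-NT and 3.13 to 9.15 TPM after depletion. In these bulk libraries fewer cells of a kind and less RNA per cell cannot be told apart.

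EGF (ENSG00000138798.7, chr4:110834039-110934922, plus strand, GRCh37) was the member with the greatest difference. In si-NT libraries EGF was 4.58 and 4.42 TPM at 72 h and 4.77 and 5.09 TPM at 144 h. In BRG1 depleted libraries at 72 h EGF was 1.04 and 1.72 TPM with the siRNA that the deposited table numbers 2, and 1.66 and 1.10 TPM with the siRNA numbered 3. At 144 h the corresponding values were 0.93 and 0.94 TPM with siRNA 2, and 0.38 and 0.32 TPM with siRNA 3. Every depleted library was therefore below every si-NT library, and the 144 h depleted libraries were all below those of 72 h. Mean EGF was 4.50 ± 0.113 TPM (SD, n = 2) in si-NT and 1.38 ± 0.360 TPM (SD, n = 4) after depletion at 72 h, which is 30.7% of the control level. At 144 h it was 4.93 ± 0.226 and 0.642 ± 0.339 TPM, or 13% of control. On the log2(TPM + 1) scale, which is used for every difference below and understates changes of genes with low TPM, the differences were -1.22 (SE 0.20) and -1.88 (SE 0.20). Since EGF was chosen for this difference, no test is given for it. Of 16337 genes with at least 1 TPM in 2 or more libraries, 100 had a greater fall than EGF at 72 h and 53 at 144 h.

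**Figure D1:**
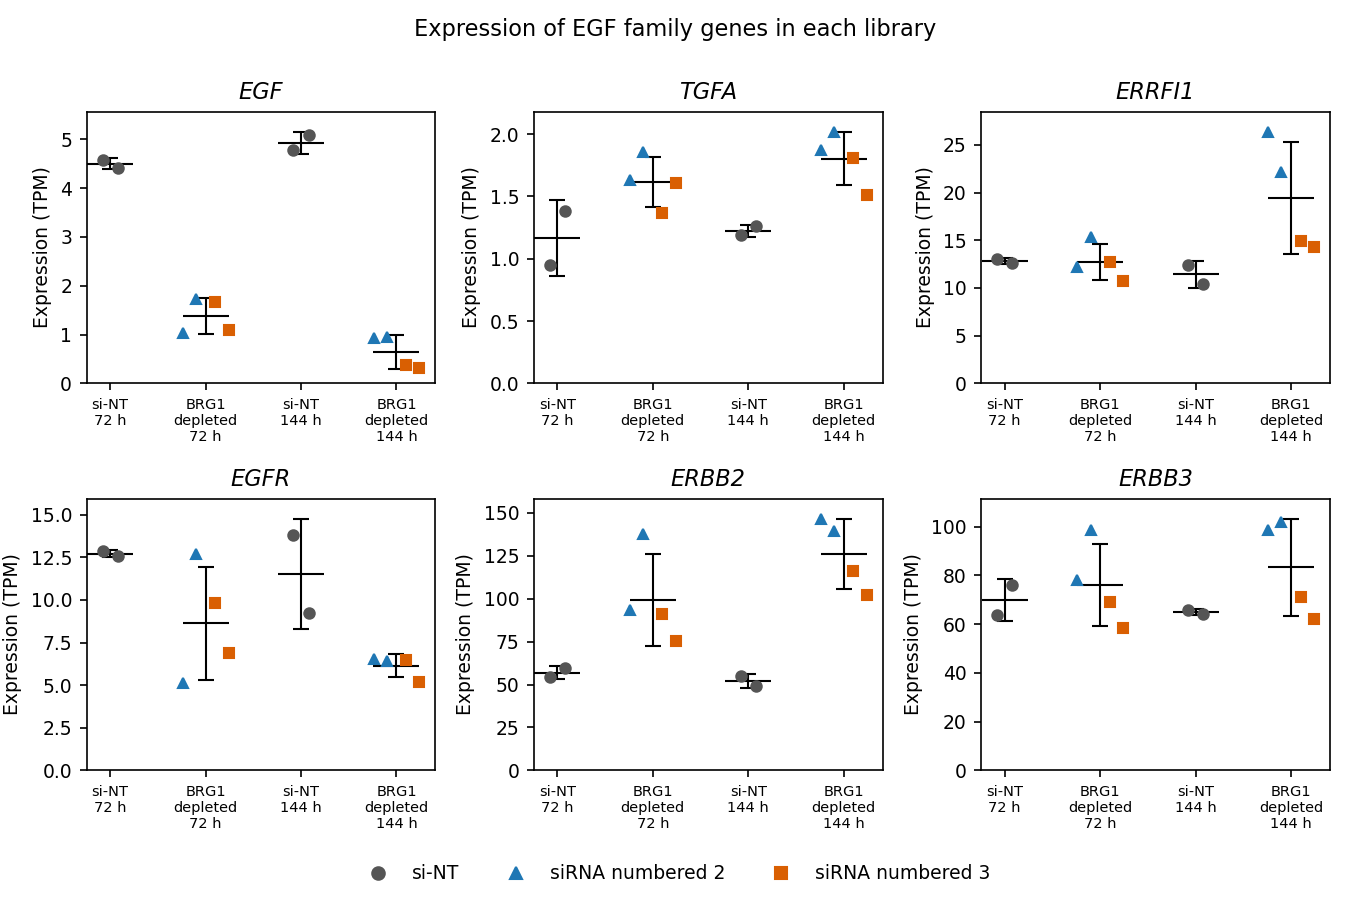
TPM (y axes, linear from 0) of the 6 genes that could be tested in each of the 12 libraries, by group (x axes). Points are libraries, shaped by siRNA, and bars are the mean and SD of the group. EGF in depleted libraries (0.32 to 1.72 TPM) lies below all si-NT libraries (4.42 to 5.09 TPM), ERBB2 in depleted libraries (75.61 to 146.28 TPM) lies above all si-NT libraries (48.97 to 59.65 TPM), and the ERBB3 groups overlap.

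Changes in EGF that its choice did not use were examined in the control cells and between the siRNAs. Between the si-NT libraries of 144 h and 72 h EGF differed by 0.11 on the log2 scale (95% interval -0.40 to 0.62, limma adjusted p = 1). At 72 h the siRNAs gave the same fitted EGF level, with a difference of 0.00 for siRNA 3 minus siRNA 2 (95% interval -0.42 to 0.43, limma adjusted p = 1). At 144 h the siRNA 3 libraries were both lower than the siRNA 2 libraries, with a difference of -0.52 (95% interval -0.94 to -0.10), which did not pass adjustment over all genes (unadjusted p = 0.021, limma adjusted p = 0.292). SMARCA4 itself was 14.4 TPM with siRNA 3 (11.42 and 17.44 TPM) and 16 TPM with siRNA 2 (15.9 and 16.16 TPM) at 144 h. The siRNAs thus overlapped in SMARCA4, and their difference of -0.17 did not pass the test (limma adjusted p = 0.738).

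Of the other ligands of EGFR, TGFA (ENSG00000163235.11, chr2:70674416-70781325, minus strand), which binds the same receptor as EGF, was expressed at 1 to 2 TPM. TGFA was 0.95 and 1.38 TPM in si-NT at 72 h, and 1.63 and 1.86 TPM with siRNA 2 and 1.37 and 1.61 TPM with siRNA 3. At 144 h TGFA was 1.19 and 1.26 TPM in si-NT, 1.87 and 2.02 TPM with siRNA 2, and 1.81 and 1.51 TPM with siRNA 3. The groups overlapped slightly at 72 h and were separate at 144 h, with the depleted libraries higher. Neither difference passed the test, at 0.28 (SE 0.15, limma adjusted p = 0.438) and 0.33 (SE 0.15, limma adjusted p = 0.129). With the 4 si-NT libraries as a single control group, the adjusted p at 144 h was 0.0357.

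AREG (ENSG00000109321.6, chr4:75310853-75320722, plus strand), the gene of amphiregulin, was 0 to 0.41 TPM over the 12 libraries and too low to be tested. It was 0.04 and 0.11 TPM in si-NT at 72 h, 0.11 and 0.07 TPM in si-NT at 144 h, 0 to 0.32 TPM after depletion at 72 h and 0.1 to 0.41 TPM after depletion at 144 h. AREG values are uncertain because a near-identical copy, AREGB (ENSG00000205595.3, chr4:75480629-75490486, plus strand), has its own entry at 0 to 0.11 TPM, and reads may have been divided between them. HBEGF, another ligand of EGFR, was 2.63 to 4.27 TPM in the 12 libraries and its difference did not pass the test at 72 h (-0.20, limma adjusted p = 0.628) or 144 h (0.21, limma adjusted p = 0.368). Among the remaining ligands EPGN and NRG1 were listed at 0 in all 12 libraries, EREG reached 0.01 TPM, BTC 0.7 TPM, NRG2 0.19 TPM and NRG3 0.11 TPM. NRG4 was 2.67 TPM in a single si-NT library of 144 h and 0 to 0.73 TPM in the other 11 libraries.

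The make-up of the ligand transcripts was accordingly different in the depleted cells. EGF accounted for 44.1 ± 5.66% (SD, n = 2) of the summed TPM of 11 ERBB ligands in si-NT and 20 ± 4.22% (SD, n = 4) after depletion at 72 h, and for 46.6 ± 8.9% and 8.76 ± 3.65% at 144 h. HBEGF went from 35.8 to 44.7% at 72 h and from 27.1 to 50% at 144 h, and TGFA from 11.3 to 23.7% and from 11.6 to 25.7%. Of the si-NT libraries of 144 h, that with NRG4 at 2.67 TPM had the lower shares of these ligands. EGF was 40.3% there and 52.9% in its duplicate, and HBEGF was 22.7 and 31.5%. The ratio of EGF to TGFA, which does not depend on how libraries are scaled, was 3.2 to 4.82 in the 4 si-NT libraries, 0.638 to 1.21 in depleted libraries at 72 h and 0.21 to 0.497 at 144 h. EGF was thus the ligand with the highest level in every si-NT library, and in every depleted library HBEGF was higher than EGF. These shares contain EGF and are given without a test.

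The receptors differed from EGF and from each other. EGFR (ENSG00000146648.11, chr7:55086710-55279321, plus strand), the receptor of EGF, was 12.85 and 12.58 TPM in si-NT at 72 h, 5.14 and 12.68 TPM with siRNA 2, and 9.81 and 6.9 TPM with siRNA 3. The duplicates of siRNA 2 were the lowest and the highest of the depleted libraries, and the group overlapped si-NT. At 144 h EGFR was 13.82 and 9.23 TPM in si-NT, 6.56 and 6.41 TPM with siRNA 2, and 6.46 and 5.17 TPM with siRNA 3. The depleted libraries of 144 h were close to each other and below both controls, which themselves differed. Mean EGFR was 12.7 ± 0.191 against 8.63 ± 3.32 TPM at 72 h and 11.5 ± 3.25 against 6.15 ± 0.656 TPM at 144 h. The log2 difference was -0.58 (SE 0.27, limma adjusted p = 0.356) at 72 h and -0.79 (SE 0.27, limma adjusted p = 0.0499) at 144 h. The 144 h call was marginal, since 10 of 16 alternative analyses lost it, and without si-NT replicate 1 of 144 h the difference was -0.52 (limma adjusted p = 0.348). In all 16 the difference was negative. These 16 left out no library of 72 h, and the number of members called at 144 h also fell without some of those.

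ERBB2 (ENSG00000141736.9, chr17:37844167-37886679, plus strand), the receptor also known as HER2, was higher in all 8 depleted libraries than in any si-NT library. It was 54.24 and 59.65 TPM in si-NT at 72 h, 93.6 and 137.94 TPM with siRNA 2, and 90.84 and 75.61 TPM with siRNA 3. At 144 h it was 54.76 and 48.97 TPM in si-NT, 146.28 and 139.72 TPM with siRNA 2, and 116.33 and 101.96 TPM with siRNA 3. Mean ERBB2 was 1.75 times the control level at 72 h (56.9 ± 3.83 against 99.5 ± 26.8 TPM) and 2.43 times at 144 h (51.9 ± 4.09 against 126 ± 20.6 TPM). The difference of 0.76 (SE 0.21) at 72 h did not pass the test (unadjusted p = 0.00318, limma adjusted p = 0.102), although it did with the 4 si-NT libraries as a single group (limma adjusted p = 0.0116). At 144 h ERBB2 rose by 1.25 (SE 0.21, limma adjusted p = 0.00174). With the libraries scaled to ERCC instead, the 144 h difference was 0.85 and was not called (limma adjusted p = 0.151). ERCC scaling moved the median of all genes from 0.03 to -0.31 at 144 h and from 0.06 to -0.11 at 72 h, and relative to these medians the ERBB2 difference at 144 h was 1.23 in TPM and 1.17 with ERCC.

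ERBB3 (ENSG00000065361.10, chr12:56470583-56497289, plus strand) was the most abundant receptor in the control cells. ERBB3 was 63.87 and 76.06 TPM in si-NT at 72 h, 78.29 and 98.48 TPM with siRNA 2, and 69.25 and 58.42 TPM with siRNA 3. At 144 h it was 66.01 and 64.25 TPM in si-NT, 98.82 and 101.78 TPM with siRNA 2, and 71.02 and 61.93 TPM with siRNA 3. The siRNA 2 libraries were above the controls at both time points, whereas the siRNA 3 libraries were between the controls or below them at 72 h and on either side of them at 144 h. Neither the 72 h difference (0.10, 95% interval -0.39 to 0.58, limma adjusted p = 0.891) nor the 144 h difference (0.32, 95% interval -0.16 to 0.81, limma adjusted p = 0.325) passed the test. With ERCC scaling their signs turned (-0.09 and -0.08). Relative to the median of all genes, these differences were 0.04 and 0.29 in TPM and 0.02 and 0.24 with ERCC. ERBB4 (ENSG00000178568.9, chr2:212240442-213403565, minus strand), a receptor for neuregulins, was 0 to 0.07 TPM, was listed at 0 in 6 of 12 libraries and was not tested.

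Shares of the receptor transcripts do not depend on the scaling of a library and separated the groups with little spread. ERBB2 made up 40.0 to 41.4% of the summed TPM of the 4 receptors in the 4 si-NT libraries, 52.9 to 55.4% in the depleted libraries at 72 h and 56.4 to 60.3% at 144 h. ERBB3 went from 50.0 ± 1.78 to 41.5 ± 1.99% at 72 h and from 50.7 ± 2.43 to 38.4 ± 2.16% at 144 h. EGFR went from 9.15 ± 0.94 to 4.67 ± 1.23% and from 8.90 ± 1.93 to 2.90 ± 0.364%. Hence ERBB3 led the receptors in every si-NT library and ERBB2 in every depleted library. The ratio of ERBB2 to EGFR was 3.96 to 5.31 in si-NT libraries, 9.26 to 18.2 in depleted libraries at 72 h and 18 to 22.3 at 144 h. At 72 h the ERBB2 shares with siRNA 2 (52.9 and 55.4%) enclosed those with siRNA 3 (53.5 and 53.6%), and at 144 h they were 58.1 and 56.4% with siRNA 2 and 60 and 60.3% with siRNA 3. The order of receptor levels in control cells was ERBB3, ERBB2, EGFR and ERBB4, and no neighbours in this order overlapped in TPM among the si-NT libraries.

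**Figure D2:**
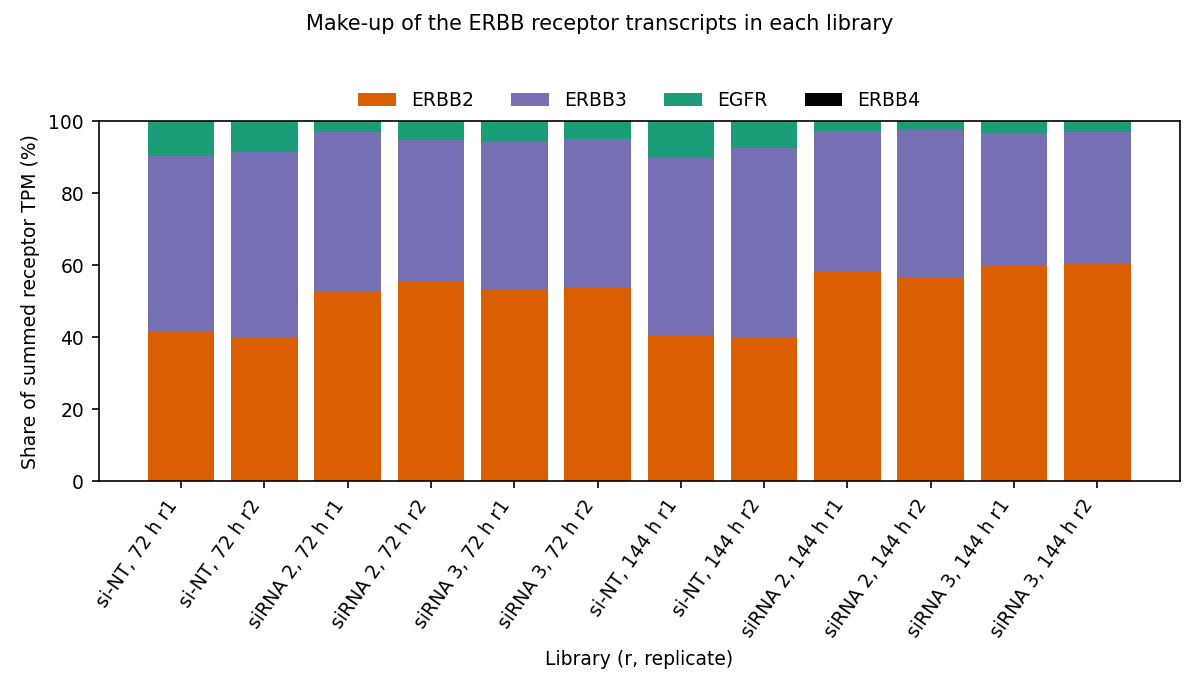
Share (y axis, % of the summed TPM of EGFR, ERBB2, ERBB3 and ERBB4) of each receptor in each library (x axis). ERBB2 takes 40.0 to 41.4% in si-NT libraries and 52.9 to 60.3% in depleted libraries, while EGFR takes 7.54 to 10.3% and 2.59 to 5.77%, and ERBB4 is too small to be seen.

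ERRFI1 (ENSG00000116285.8, chr1:8064464-8086369, minus strand), also called MIG6, encodes the inhibitor of EGFR kinase described above. ERRFI1 was 13.03 and 12.58 TPM in si-NT at 72 h, 12.2 and 15.3 TPM with siRNA 2, and 12.72 and 10.74 TPM with siRNA 3. At 144 h it was 12.4 and 10.43 TPM in si-NT, 26.39 and 22.13 TPM with siRNA 2, and 14.95 and 14.31 TPM with siRNA 3. The groups overlapped at 72 h and were separate at 144 h, where the siRNA 2 libraries were the highest. The mean at 144 h was 1.70 times that of si-NT (19.4 ± 5.83 against 11.4 ± 1.39 TPM). ERRFI1 differed by -0.02 (SE 0.22, limma adjusted p = 0.983) at 72 h and rose by 0.68 (SE 0.22, limma adjusted p = 0.0423) at 144 h. This call was lost in 9 of 16 alternative analyses, which again left out no library of 72 h. With ERCC scaling the difference was 0.30 (limma adjusted p = 0.631), and without siRNA 2 replicate 1 it was 0.53 (limma adjusted p = 0.0757). Relative to the median of all genes, the 144 h difference was 0.65 in TPM and 0.62 with ERCC. The change between time points was 0.70 (95% interval 0.02 to 1.38) and did not pass adjustment (unadjusted p = 0.0452, limma adjusted p = 0.41).

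**Figure D3:**
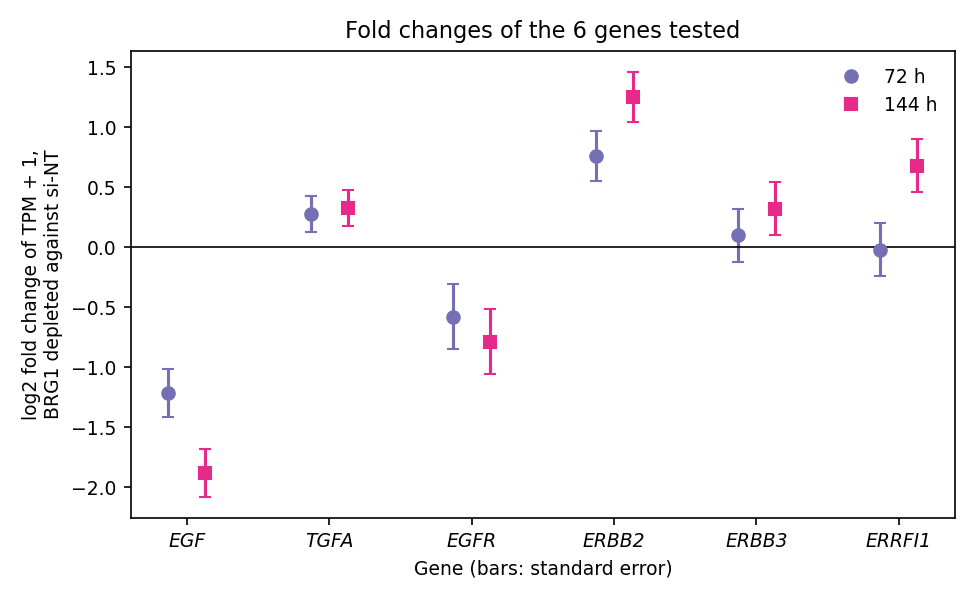
Difference between BRG1 depleted and si-NT libraries (y axis, log2 of TPM + 1) at 72 h and 144 h for the 6 genes tested (x axis), with bars of 1 SE. EGF (-1.22 and -1.88) and EGFR (-0.58 and -0.79) lie below 0 at both time points and ERBB2 (0.76 and 1.25) above, while ERRFI1 is at -0.02 and then 0.68.

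Taking the members as a list, 6 of the 8 passed the filter on low values. EGF is left out of the counts that follow, since its choice fixed its side of them. At 72 h none of the other 5 passed in limma at an adjusted p under 0.05, against 1.68% of all genes tested. ERBB2 alone had an unadjusted p under 0.05, as did 14.3% of all genes. At 144 h 3 of the 5 passed, with EGFR lower and ERBB2 and ERRFI1 higher, against 24.4% of all genes (10.8% lower and 13.6% higher). The median log2 difference of these 5 members was 0.10 at 72 h and 0.33 at 144 h, beside 0.06 and 0.03 over all genes tested. Within a time point, depleted and si-NT libraries did not overlap for ERBB2 at 72 h, where 23.3% of all genes did not overlap, and for EGFR, ERBB2, TGFA and ERRFI1 at 144 h, where 48.6% did not. These same members were also beyond all 4 si-NT libraries, as were 15.9% of all genes at 72 h and 30% at 144 h. The comparisons at 72 h and 144 h have separate libraries but share 1 estimate of the spread, and without either si-NT library of 72 h the count called at 144 h, with EGF included, was 2 rather than 4. No member other than EGF, which was not tested for this, differed between the time points in its response by limma, where 0.0184% of all genes were called. ERRFI1 alone of the 5 had an unadjusted p under 0.05, as did 11.9% of all genes.

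Between the si-NT libraries of 144 h and 72 h no member passed in limma and none had an unadjusted p under 0.05, while 0% of all genes were called and 4.11% had an unadjusted p under 0.05. The siRNAs were then compared with each other, which the choice of EGF did not use. No member passed in limma at 72 h (2 at an unadjusted p under 0.05, against 0.141% of all genes called and 8.33% at an unadjusted p under 0.05) or at 144 h (4 at an unadjusted p under 0.05, against 0.331% called and 13.3% at an unadjusted p under 0.05). ERBB3 was lower with siRNA 3 by -0.46 (unadjusted p = 0.00886, limma adjusted p = 0.393) at 72 h and -0.59 (unadjusted p = 0.00203, limma adjusted p = 0.142) at 144 h. ERBB2 differed by -0.45 (limma adjusted p = 0.531) and -0.39 (limma adjusted p = 0.372), and ERRFI1 at 144 h by -0.69 (95% interval -1.02 to -0.35, unadjusted p = 0.00111, limma adjusted p = 0.119). The median of all genes between the siRNAs at 144 h was -0.10. Against si-NT, the fitted ERRFI1 difference at 144 h was 1.02 with siRNA 2 and 0.34 with siRNA 3, and that of ERBB2 was 1.45 and 1.06. EGFR at 144 h was -0.72 with siRNA 2 and -0.86 with siRNA 3, and EGF was -1.62 and -2.13.

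Beyond the members, 78 genes of the pathway were grouped by role, of which 59 were tested. At 72 h 3 of the 59 passed, all higher, which is 5.08% beside the 1.68% of all genes. At 144 h 22 passed, which is 37.3% beside the 24.4% of all genes. Of the 22, 9 were lower and 13 higher, where 10.8% of all genes were lower and 13.6% higher. The median difference of the 59 was 0.10 at 72 h and 0.09 at 144 h, beside 0.06 and 0.03 over all genes tested. With ERCC scaling only RHBDF1, SPRY4 and PIK3R1 passed at 144 h, while the calls over all genes went from 3983 to 752. SPRY4 passed the filter on low values only through the depleted libraries of 144 h. Its side in all these counts was therefore fixed in advance. The share of all calls at 144 h that were higher was 55.8% in TPM, 51.9% with median-of-ratios size factors, 49% with quantile normalisation and 18.5% with ERCC scaling, and at 72 h these shares were 66.9, 50, 54.5 and 27.3%.

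Genes of ligand release, which cut the precursors or carry the cutting enzymes to the surface, had 4 of 7 called at 144 h, all higher, beside 24.4% of all genes called and 13.6% higher. RHBDF1, an inactive rhomboid that escorts the protease ADAM17, was 18.05 and 14.04 TPM in si-NT and 24.9 to 34.41 TPM after depletion at 72 h, and 14.35 and 11.83 TPM against 36.84 to 48.17 TPM at 144 h. The groups were separate at both time points, and RHBDF1 rose by 0.78 (SE 0.16, limma adjusted p = 0.0357) and 1.55 (SE 0.16, limma adjusted p = 0.00013). The 72 h call was lost without any single library of 72 h (limma adjusted p of 0.0551 to 0.259, the highest without si-NT replicate 2). It was also lost with no filter (limma adjusted p = 0.066), median-of-ratios size factors (limma adjusted p = 0.0559), ERCC scaling (0.59, limma adjusted p = 1), the replicate block (limma adjusted p = 0.0534) and only the libraries of 72 h (limma adjusted p = 0.131). RHBDL2, a rhomboid protease able to cut EGF, rose by 0.75 at 144 h (limma adjusted p = 0.00915) from 1.49 ± 0.099 to 3.20 ± 0.361 TPM, a call lost without si-NT replicate 1 (limma adjusted p = 0.0766) or 2 (limma adjusted p = 0.0679) of 144 h and with ERCC scaling (limma adjusted p = 0.339). The others that passed were the proteases ADAM9 (0.53, limma adjusted p = 0.0397) and ADAM10 (0.66, limma adjusted p = 0.0327), the latter known to release EGF. ADAM17, the main protease of TGFA and AREG, was -0.10 (limma adjusted p = 0.686). RHBDF2, of the same list, was -0.35 and did not pass (limma adjusted p = 0.0595).

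Among 13 genes of receptor feedback and turnover other than ERRFI1, 3 were lower and 2 higher at 144 h, beside 10.8 and 13.6% of all genes. The membrane inhibitor LRIG1, which promotes degradation of ERBB receptors, fell by 0.80 (limma adjusted p = 0.0273) from 16.3 ± 2.84 to 8.99 ± 1.71 TPM, and its relative LRIG3 fell by 0.72 (limma adjusted p = 0.0203). SOCS4 was also lower (-0.37, limma adjusted p = 0.0422). PTPRJ, a receptor phosphatase, rose by 1.04 (limma adjusted p = 0.00185) from 3.20 ± 0.552 to 7.72 ± 1.45 TPM. CBLC, a ubiquitin ligase that acts on EGFR, rose by 0.91 (limma adjusted p = 0.00478) from 8.60 ± 1.24 to 17.2 ± 3.51 TPM. The LRIG1 call was lost with no filter (limma adjusted p = 0.0681) and without si-NT replicate 1 (limma adjusted p = 0.204) or 2 (limma adjusted p = 0.0822), siRNA 2 replicate 1 (limma adjusted p = 0.0538) or siRNA 3 replicate 2 (limma adjusted p = 0.0561) of 144 h. The LRIG3 call was lost with no filter (limma adjusted p = 0.0515) and without si-NT replicate 1 (limma adjusted p = 0.102) or 2 (limma adjusted p = 0.135) of 144 h, and that of CBLC without si-NT replicate 2 of 144 h (limma adjusted p = 0.0767). With ERCC scaling the adjusted p of limma was 0.212 for PTPRJ, 0.295 for CBLC, 0.0643 for LRIG1 and 0.0511 for LRIG3.

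In the RAS-ERK cascade 2 of 16 tested genes passed at 144 h, both higher, beside 24.4% of all genes called. MAPK3, the kinase ERK1, rose by 0.53 (limma adjusted p = 0.035), a call lost with no filter (limma adjusted p = 0.0773), with ERCC scaling (0.13, limma adjusted p = 0.828) and without either si-NT or either siRNA 2 library of 144 h (limma adjusted p of 0.0723 to 0.201). In the PI3K-AKT arm 2 of 13 were lower and 3 higher at 144 h, beside 10.8 and 13.6% of all genes. PIK3CB, the catalytic subunit p110 beta, was 37.1 and 44.65 TPM in si-NT and 81.92 to 105.71 TPM after depletion at 72 h, and 41.85 and 42.08 TPM against 103.24 to 125.77 TPM at 144 h. It rose by 1.16 (SE 0.12, limma adjusted p = 0.00158) and 1.43 (SE 0.12, limma adjusted p = 3.59e-05), and with ERCC scaling the differences were 0.96 (limma adjusted p = 0.504) and 1.04 (limma adjusted p = 0.0582). PIK3CD, another catalytic subunit, rose by 1.02 at 144 h (limma adjusted p = 0.00128) and the adaptor GAB2 by 0.83 (limma adjusted p = 0.00257). The regulatory subunit PIK3R1 fell by 0.90 (limma adjusted p = 0.00189) from 31.5 ± 5.12 to 16.4 ± 2.06 TPM, and INPP4B, a phosphatase that opposes this pathway, fell by 0.65 (limma adjusted p = 0.0327). The INPP4B call was lost with no filter (limma adjusted p = 0.0723), with ERCC scaling (limma adjusted p = 0.0916) and without either si-NT library, siRNA 2 replicate 1 or siRNA 3 replicate 2 of 144 h (limma adjusted p of 0.0617 to 0.203). That of PIK3CD was lost with ERCC scaling (limma adjusted p = 0.269). INPP4B was also 1.97 and 1.6 TPM in si-NT at 144 h beside 3.07 and 3.4 TPM in si-NT at 72 h.

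Of 18 ERK-induced genes, the usual transcriptional readout of this signalling, only 9 could be tested. At 144 h 4 of the 9 were lower and 2 higher, beside 10.8 and 13.6% of all genes. SPRY4 is among the higher genes, though the filter on low values fixed its side. The ERK phosphatase DUSP5 fell by 0.65 (limma adjusted p = 0.0387), the ERK pathway inhibitor SPRY1 by 0.61 (limma adjusted p = 0.0435), SPRED2 by 0.58 (limma adjusted p = 0.0272) and DUSP7 by 0.42 (limma adjusted p = 0.0122). The DUSP5 call was lost with no filter (limma adjusted p = 0.0773), with ERCC scaling (limma adjusted p = 0.0866) and without any single library of 144 h but siRNA 2 replicate 2 (limma adjusted p of 0.0609 to 0.234). That of SPRY1 was lost with no filter (limma adjusted p = 0.105), with ERCC scaling (limma adjusted p = 0.102), with si-NT combined over time points (limma adjusted p = 0.0889) and without any single library of 144 h but siRNA 2 replicate 1 (limma adjusted p of 0.0555 to 0.243). SPRY4, of the same family as SPRY1, was 0.2 and 0.08 TPM in si-NT at 144 h and 1.79 to 3.64 TPM after depletion, and 0.08 to 0.36 TPM in all libraries of 72 h. SPRY4 passed the filter on low values only through the depleted libraries of 144 h, so it had to differ there, and although it is counted above, its difference of 1.74 at 144 h is given as a description. EPHA2, a receptor tyrosine kinase induced by ERK, rose by 0.55 at 72 h (limma adjusted p = 0.0437) and by 1.00 at 144 h (limma adjusted p = 0.0003, and 0.18 with ERCC scaling), from 3.46 ± 0.106 to 7.94 ± 0.895 TPM at the later time. The 72 h call of EPHA2 was lost in most alternatives, among them no filter (limma adjusted p = 0.0623), every other scaling, the replicate block and only the libraries of 72 h. It was also lost without any single library of 72 h. The limma adjusted p was 0.0853 to 0.0905 without a depleted library, and the difference was 0.60 and 0.50 without si-NT replicate 1 and 2. CCND1, the gene of cyclin D1, was 0.01 at 144 h (limma adjusted p = 0.967). The rest of the 18 were too low to be tested, DUSP6, EGR1 and PHLDA1 among them, so much of this readout could not be examined.

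**Figure D4:**
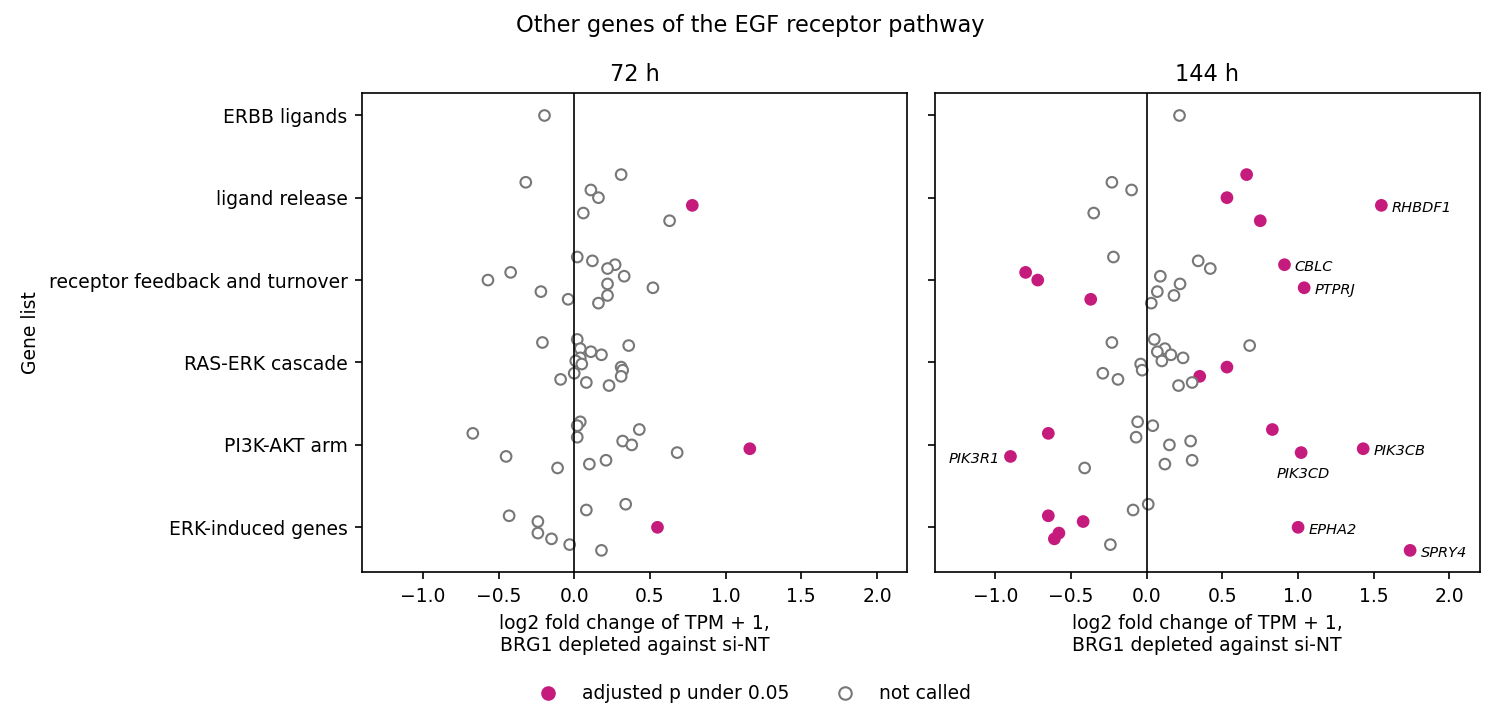
Difference between BRG1 depleted and si-NT libraries (x axes, log2 of TPM + 1) at 72 h (left) and 144 h (right) for the 59 tested pathway genes outside the members, in rows by gene list. Filled points passed at an adjusted p under 0.05 (3 at 72 h, 22 at 144 h), with calls on both sides of 0 in feedback, PI3K-AKT and ERK-induced genes and to the right alone in ligand release. SPRY4 is among those of 144 h, although the filter on low values fixed its side.

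The genes whose expression was most like that of EGF over the 12 libraries were found among 16336 tested genes by Pearson correlation of log2(TPM + 1). They were MAB21L4 (r = 0.986), ADAMTS3 (r = 0.985), SLC7A2 (r = 0.980), CASP4 (r = 0.980) and TMEFF2 (r = 0.978). The points share the split into si-NT and depleted libraries, so these values describe the pattern and carry no test. ADAMTS3 passed the filter on low values only through the si-NT libraries (1.54 to 2 TPM), so it had to be higher in them. MAB21L4 was 36.92 to 69.39 TPM in the si-NT libraries, 3.77 to 10.35 TPM in depleted libraries at 72 h and 0.66 to 2.65 TPM at 144 h. TMEFF2, which encodes a membrane protein with an EGF-like domain, was 13.34 to 19.81, 4.34 to 6.35 and 1.58 to 4.44 TPM in the same groups. SLC7A2, a transporter of basic amino acids, was 4.4 to 4.93, 1.8 to 2.1 and 0.98 to 1.27 TPM. Depleted libraries of these 3 genes were below every si-NT library, and those of 144 h were, as for EGF, all below those of 72 h for MAB21L4 and SLC7A2, while the TMEFF2 ranges of the 2 time points overlapped. CASP4 was 12.25 to 14.71 TPM in si-NT libraries. After depletion it was 4.5 to 7.18 TPM at 72 h and 4.27 to 5.6 TPM at 144 h, ranges that also overlapped.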

How the data were processed

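Total RNA with added ERCC spike-ins was made into stranded mRNA libraries by the authors, and reads were aligned to hg19 (GRCh37) with STAR and counted with featureCounts. The submitters' processing notes name Trim Galore 0.11.2, FastQC and STAR 2.4.0j. The deposited values are TPM, determined by the authors on GENCODE genes, for 63568 genes and 92 spike-ins in 12 libraries, each summing to 999999 to 1000001. The ERCC normalisation described in the methods is therefore not kept in the deposited TPM, and the strand setting of the counting was not stated. TPM keeps no depth, so no count model or counting interval was used.

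TPM was taken to log2 after adding 1, and the 16337 genes that reached 1 TPM in 2 or more libraries were fitted with limma 3.58.1 (R 4.3.3, trend on mean expression) in 4 groups, with Benjamini-Hochberg adjustment over all of them. The siRNAs were compared in a fit with 6 groups. The table numbers the siRNAs 2 and 3 and the labels 1 and 2, so siRNAs are named by the table, and the labels of 1 library at 72 h conflict over its siRNA. Members, gene lists and tests were chosen with earlier results of these data known. EGF was given no test of depletion. Pathway genes were named by the 2 largest falls and 2 largest rises called at 144 h in each list, and by any call at 72 h, and 1 gene of the RAS-ERK list so named is not reported here. ADAM9, ADAM10, ADAM17, RHBDF2, SOCS4, GAB2, SPRED2, DUSP6, DUSP7, EGR1, PHLDA1, HBEGF and CCND1 were named outside that rule after their values were seen. The calls among these genes were lost with ERCC scaling. They were not followed singly through the other alternatives, so no list of settings that lose them is given. GRCh37 positions are from GENCODE release 44 lifted to that build, and promoters from RefSeq (GRCh38.p14), in which 7 of the 8 members were found. The procedure was tested on simulated data. Figures were drawn with matplotlib 3.10.9 in Python 3.11.15. Alternatives were other pseudocounts, filters, scalings, control groups and thresholds, a replicate block, and each library left out in turn. For single genes, only the libraries of the time point concerned were left out. No pair of libraries held identical values.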

Additional observations from a re-analysis of the deposited data

Results flagged for a closer look

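A single library stood apart from the other 3 of its group in 2 of the 16 groups of 4 examined, by Dixon's criterion at the 95% level, where chance alone gives about 1 in 20. EGFR in siRNA 3 replicate 2 at 144 h was 5.17 TPM, whereas the other depleted libraries of that time were 6.41 to 6.56 TPM. Without that library the EGFR difference at 144 h was -0.72 (limma adjusted p = 0.0952). ERBB4 in siRNA 3 replicate 2 at 72 h was 0.03 TPM and the other 3 libraries were listed at 0. Neither was tested further.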

How the results depend on the processing

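Counts of members include EGF, whose place in them follows from its choice. The count at 72 h (1, EGF) was 0 with a pseudocount of 0.1, a mean TPM of at least 5, ERCC scaling, only the libraries of the time point, an adjusted p under 0.01 or a limit of 1.5 on the log2 difference, 2 with the si-NT libraries combined, and 0 to 1 with a library left out (0 without si-NT replicate 1 or 2 of 72 h). The 4 called at 144 h became 2 with no filter, the replicate block, no trend or an adjusted p under 0.01, 1 with ERCC scaling or the limit of 1.5, and 2 to 4 with a library left out. It was 2 without either si-NT library of 72 h or of 144 h, without either siRNA 2 library of 144 h, and without siRNA 3 replicate 1 of 72 h. The 3 pathway calls at 72 h became 1 with no filter, the replicate block, only that time point or an adjusted p under 0.01, 0 with ERCC scaling or the limit of 1.5, 8 with si-NT combined, and 1 to 3 with a library left out. It was 2 without siRNA 2 replicate 2 of 144 h, 3 without siRNA 3 replicate 2 of 144 h and 1 without any other library. The 22 at 144 h became 13 with no filter, 3 with ERCC scaling, 10 with an adjusted p under 0.01, 2 with the limit of 1.5, and 8 to 25 with a library left out (9 and 8 without si-NT replicate 1 and 2 of 144 h). SPRY4, whose side the filter fixed, is in the 22, in the 3 with ERCC scaling and in the 2 with the limit of 1.5. Over all genes, ERCC scaling took the calls from 275 to 33 at 72 h and from 3983 to 752 at 144 h.

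Signs turned for ERBB3 at 72 h (-0.09 with ERCC scaling, -0.02 without si-NT replicate 1, -0.03 without siRNA 2 replicate 2, against up to 0.22 without si-NT replicate 2) and 144 h (-0.08 with ERCC scaling), ERRFI1 at 72 h (0.06 with si-NT combined, 0.01 without si-NT replicate 1, 0.06 without siRNA 3 replicate 2, against down to -0.10 without siRNA 2 replicate 2) and SPRY1 at 72 h (0.18 without si-NT replicate 1, -0.48 without si-NT replicate 2). The cause was not tested, except that a limit or filter changes what can be called. ERCC scaling also lowered the median of all genes, as given above. EGF was lower in every setting, by -1.67 (pseudocount 0.1) to -1.15 at 72 h and -2.88 (pseudocount 0.1) to -1.78 at 144 h. Replicate numbers gave little sign of pairing the libraries (15 pairs of groups, r = -0.23 to 0.30, above 0.1 in 2). These correlations cannot exclude pairing, and the replicate block changed counts as given above. With 2 si-NT libraries per time point and no depth, differences of low genes such as AREG and ERBB4 could not be examined.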
